A study of Sus scrofa with 12 samples.

Results

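The genes described here work in mitosis, the step in which a dividing cell separates its copied chromosomes, and in the kinetochore, the protein plate on the centromere to which spindle fibres attach. They were taken by gene symbol: array features with a single symbol that starts with CENP, BUB, AURK, PLK, CCNA, CCNB, CDC25, NCAP, SPC2, MAD2L or CKAP, or that is any of 18 further symbols such as CDK1, CKS2, TOP2A and MKI67. With the brightest feature kept for each gene, this gave 43 of the 10912 genes measured. Of these, 40 are treated as mitotic genes below, and CENPV, CKAP4 and PLK2 were kept in a list of their own. Of the 18 symbols, 11 were measured, whereas CKS1B, NDC80, TPX2, NUSAP1, PRC1, ECT2 and MKI67 were not analysed here, nor were CCNB1, PLK1, AURKB, BUB1 and CENPE.

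Entry into mitosis is driven by the kinase CDK1 bound to cyclins of the A and B families, after CDC25 phosphatases have removed its inhibitory phosphates. The spindle checkpoint then holds the cell until every kinetochore is attached, and CDC20 afterwards directs the anaphase promoting complex to release the sister chromosomes. Messengers of most of these genes accumulate late in the cell cycle and are scarce in resting cells. In the glands of the oxyntic mucosa, which lines the body of the stomach and secretes acid, dividing progenitors lie in the isthmus, and acid-secreting parietal cells are not dividing.

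The study asked how the complexity of the first microbiota shapes the gastric mucosa of piglets. All 12 piglets, of a (Great York × Pietrain) × 'Dalland' cross, were caesarean-delivered, fed artificially, and given 2 mL of a simple starter microbiota of 3 bacteria on days 1 to 3 of age. On days 3 to 4, 6 piglets received a dilution of feces from an adult sow, which made up the complex association (CA), and 6 received a placebo, the simple association (SA), and oxyntic mucosa was sampled at 2 weeks of age. Each piglet is a separate animal with 1 Affymetrix porcine array. CA piglets carry the numbers 1 to 6 and SA piglets the numbers 7 to 12. By the labels each treatment had rooms of its own, whereas by the methods each room held piglets of both. No label gives a piglet's room, litter or sex, so room and treatment cannot be told apart here.

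Values are log2 of the deposited intensities, on which a difference of 1 is a doubling, and they have no meaning between different genes because each probe set binds with its own strength. Median intensity per array lay between 55.6 and 57.6. ATP4A and ATP4B, the subunits of the gastric proton pump, were at 12.01 and 11.59 on average over the arrays. Their intensities were above those of 99.87% and 99.68% of all features. The array of CA 4 lay apart, at 26.93 on a first principal component that carried 26.3% of the variance (other piglets -17.43 to 10.73), and limma's array weights gave it 0.267 (others 0.69 to 1.56). Whole mucosa was measured, in which fewer dividing cells and less RNA per cell cannot be told apart. Of the 43 genes, 5 had features dimmer than the median of all features (CCNA1, CKAP4, CENPL, CCNB3 and TACC3). Precision is limited by the small number of arrays.

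Most mitosis genes had lower means in the CA piglets, without any gene passing the test. Of the 43 genes, 36 had a lower mean in the CA piglets (83.7%), as compared to 47.3% of all genes measured. The median log2 fold change (CA minus SA) was -0.17 (SE over piglets 0.12, n = 6 and 6, where SE is the standard error), and that of all genes was 0.01. Single genes ranged from -0.40 for CKAP2L to 0.15 for CDC25B. For medians of lists, here and below, the SE belongs to the group difference in each piglet's median deviation from the gene means. That difference can depart from the median fold change. Over the 40 mitotic genes it was -0.14, beside a median log2 fold change of -0.17. A log2 fold change of -0.2 or lower was found for 16 of the 43 genes, beside 3.1% of all genes. The 43 genes varied more within groups (median SD 0.26, beside 0.16 for all genes), so a fixed cut is passed more readily. They also moved together over the piglets (median Pearson correlation of pairs 0.54, beside 0.01), so they do not count as independent genes. In the limma fit over all genes with Benjamini-Hochberg adjustment, 0 of the 43 genes and 0% of all genes had an adjusted p under 0.05 (lowest adjusted p of the 43 = 0.999). At an unadjusted p under 0.05, limma gave CKS2, CKAP2L and CCNB3, all lower in the CA piglets, beside 1.22% of all genes in that direction, 2.06% in the other and 3.28% in either. The exact permutation test over all splits of the piglets into 6 and 6 gave 0 of the 43 genes at an unadjusted p under 0.05, beside 3.43% of all genes. The groups overlapped for each of the 43 genes, whereas they did not overlap for 0.128% of all genes.

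These counts moved with single piglets. Genes at an unadjusted limma p under 0.05 numbered 13 without SA 9 and 12 without CA 3, all lower in the CA piglets, in fits that also gave 6.16% and 4.88% of all genes at that p. They numbered 1 without CA 2, and 0 without CA 1, CA 6, SA 10, SA 11 or SA 12. The median log2 fold change was -0.10 without CA 4 and -0.11 without SA 11, and the adjusted p under 0.05 was reached by 0 of the 43 genes whichever piglet was left out.

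**Figure D1:**
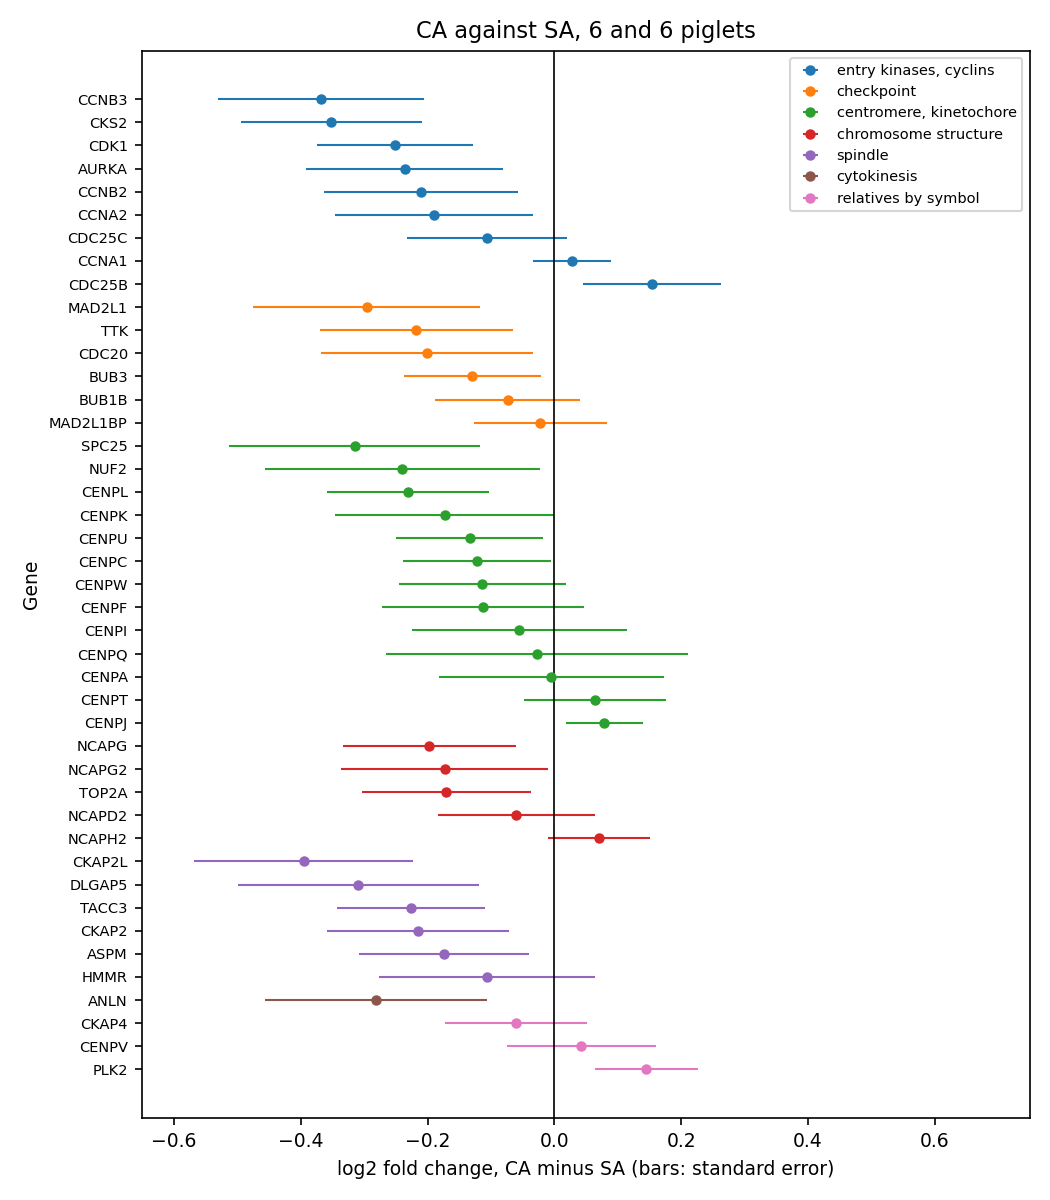
Log2 fold change (CA minus SA) of the 43 genes, grouped by role, from the limma fit over all genes; points are estimates and bars are 1 SE, with 6 piglets in each group. Points of 36 genes lie left of 0, between -0.40 and -0.005, and the 7 to the right reach 0.15.

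Among the kinases and cyclins of mitotic entry, 7 of 9 had lower means in the CA piglets (47.3% of all genes did), with a median log2 fold change of -0.21 (SE 0.14). By limma, 2 of the 9 had an unadjusted p under 0.05, beside 1.22% of all genes in that direction. By exact permutation this was 0 of the 9, beside 3.43% of all genes in either direction. CKS2, a small subunit that binds cyclin-dependent kinases, lay between 7.41 and 7.94 in the CA piglets (median 7.63) and between 7.33 and 8.22 in the SA piglets (median 8.12). All CA values were below 5 of the 6 SA values, and SA 9 was the lowest of all piglets. Its mean was 7.66 ± 0.19 in the CA piglets and 8.01 ± 0.34 in the SA piglets (SD, n = 6 each), a log2 fold change of -0.35 (95% interval -0.66 to -0.05), or 0.783 of the SA level. For CKS2 the limma unadjusted p was 0.0274 and the two-sided exact permutation p was 0.0563. When each piglet was left out in turn, the log2 fold change of CKS2 ran from -0.49 without SA 9 to -0.30 without CA 1.

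CCNB3, a cyclin of the B family, lay between 5.36 and 6.01 in the CA piglets (median 5.52) and between 5.24 and 6.35 in the SA piglets (median 6.03). CA 3 stood with the SA piglets and SA 9 below every CA piglet. The log2 fold change of CCNB3 was -0.37 (95% interval -0.72 to -0.02), with an unadjusted p of 0.0406 from limma and 0.0714 from the exact permutation test. Its feature was dimmer than the median of all features.

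CDK1, the kinase that triggers mitosis, lay between 7.85 and 8.51 in the CA piglets (median 8.17) and between 8.01 and 8.71 in the SA piglets (median 8.42). CA 4 was the lowest, SA 11 the highest, and CA 3 was above 4 of the 6 SA piglets. The log2 fold change of CDK1 was -0.25 (SE 0.12, exact permutation p = 0.0952), and a dimmer feature of the same gene gave -0.18 (SE 0.17). AURKA, a kinase that matures the centrosomes before the spindle forms, had a range of 7.39 to 8.21 in the CA piglets (median 7.73) and of 7.48 to 8.25 in the SA piglets (median 8.05), with a log2 fold change of -0.24 (SE 0.16). Its 3 lowest values were those of CA 2, CA 1 and SA 9. CCNA2, the cyclin of S phase and mitotic entry, had a range of 9.13 to 10.04 in the CA piglets (median 9.50) and of 9.21 to 9.93 in the SA piglets (median 9.88), at a log2 fold change of -0.19 (SE 0.16). Both its highest and its lowest value belonged to CA piglets, CA 3 and CA 4.

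CCNB2, a further B cyclin, had a log2 fold change of -0.21 (SE 0.15), and CDC25C, an activating phosphatase of CDK1, had -0.11 (SE 0.13). The exceptions in direction were CDC25B, a related phosphatase that starts CDK1 activation, at 0.15 (SE 0.11), and CCNA1, a cyclin best known from the male germ line, at 0.03 (SE 0.06). CCNA1 was the dimmest of the 43 genes, at a mean of 3.41, and varied by 0.30 over the 12 piglets.

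**Figure D2:**
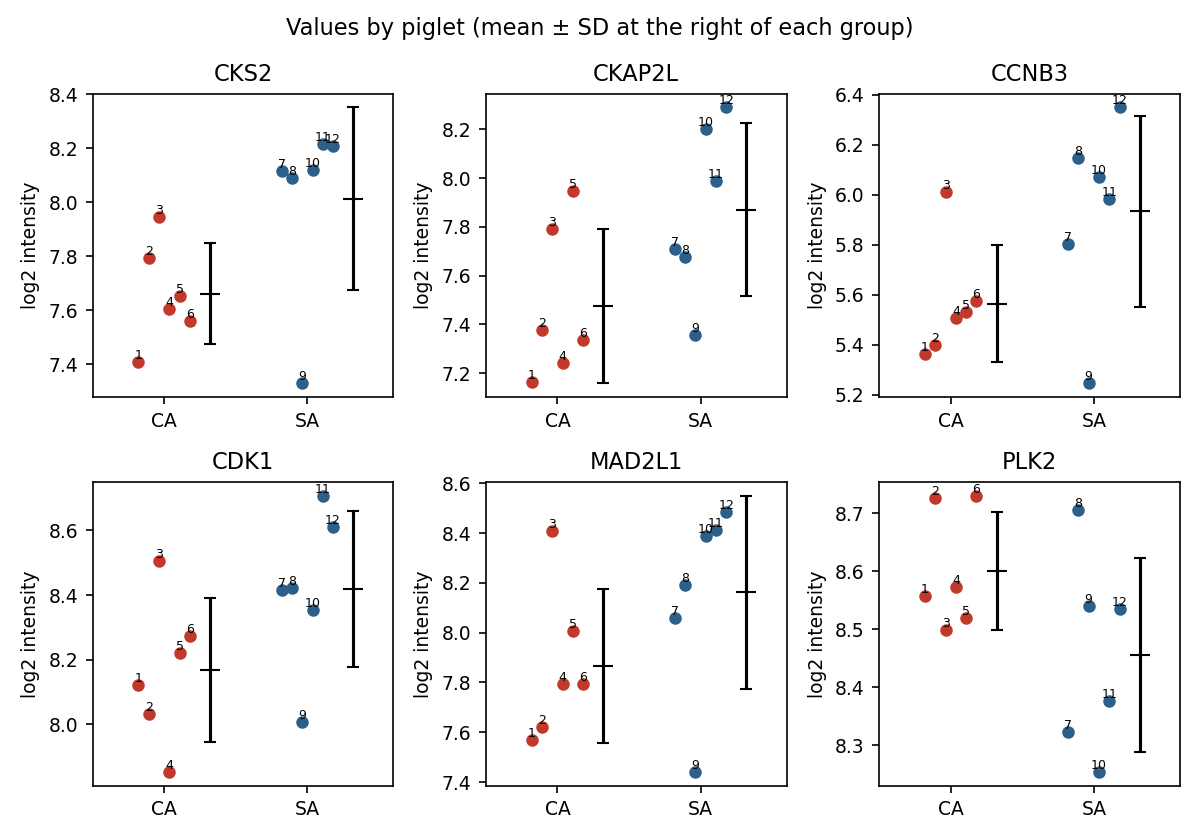
Log2 intensity of 6 genes in each piglet (numbers are piglet numbers; bars are mean ± SD of 6 piglets per group). CKS2 runs from 7.41 to 7.94 in the CA piglets and SA 9 lies below all of them at 7.33; CA 3 is the highest CA piglet for CKS2, CCNB3, CDK1 and MAD2L1; PLK2 is the gene shown with the higher CA mean.

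Of the genes of the spindle checkpoint and of the anaphase trigger, 6 of 6 had lower means in the CA piglets (median log2 fold change -0.17, SE 0.13) and 0 had an unadjusted p under 0.05 by limma or by exact permutation. Over all genes, 3.28% by limma and 3.43% by exact permutation had such a p in either direction. MAD2L1, the checkpoint protein that holds CDC20 inactive, lay between 7.57 and 8.41 in the CA piglets (median 7.79) and between 7.44 and 8.49 in the SA piglets (median 8.29). CA 3 was level with SA 10 and SA 11, and SA 9 was below every CA piglet. Its log2 fold change was -0.30 (95% interval -0.68 to 0.09, exact permutation p = 0.160).

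BUB3, which docks the checkpoint proteins on the kinetochore, was bright, from 9.18 to 9.92 in the CA piglets (median 9.63) and from 9.55 to 9.98 in the SA piglets (median 9.73). CA 4 lay apart below the other 11, and the log2 fold change of -0.13 (SE 0.11) was -0.04 without it. BUB1B, the BubR1 protein of the checkpoint complex, ranged from 6.09 to 6.73 in the CA piglets (median 6.53) and from 6.14 to 6.74 in the SA piglets (median 6.60). The groups covered nearly the same range, the log2 fold change was -0.07 (95% interval -0.32 to 0.17), and it was 0.000274 without CA 2, the lowest piglet. TTK, the Mps1 kinase at the head of the checkpoint, was at -0.22 (SE 0.15), CDC20 at -0.20 (SE 0.17), and MAD2L1BP, which takes MAD2L1 off its partners, at -0.02 (SE 0.10).

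Centromere and kinetochore genes were the most numerous, and 11 of 13 had lower means in the CA piglets, with a median log2 fold change of -0.11 (SE 0.13). Without CENPJ, which carries the prefix but belongs to the centriole, this was 11 of 12 with a median of -0.12 (SE 0.15). At an unadjusted p under 0.05, limma and the exact permutation test both gave 0 of them, beside 3.28% and 3.43% of all genes in either direction. CENPL, a part of the network that stays on the centromere through the whole cycle, lay between 4.83 and 5.36 in the CA piglets (median 5.19) and between 4.90 and 5.66 in the SA piglets (median 5.42). CA 1, SA 9 and CA 2 had the lowest values and the 3 highest were those of SA 10, SA 11 and SA 12. CENPL had a log2 fold change of -0.23 (SE 0.13, exact permutation p = 0.134), at a feature dimmer than the median.

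CENPF, a large protein of the outer kinetochore that peaks in G2 and mitosis, lay between 7.86 and 8.83 in the CA piglets (median 8.24) and between 7.88 and 8.70 in the SA piglets (median 8.45). CA 3 was the highest of all and CA 2 the lowest, just under SA 9. Its log2 fold change was -0.11 (95% interval -0.46 to 0.23), and -0.03 without CA 2. NUF2 and SPC25, subunits of the NDC80 complex that grips microtubules, had log2 fold changes of -0.24 (SE 0.22) and -0.32 (SE 0.20), and each varied by about 2.26-fold over the 12 piglets.

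CENPA, the histone variant that marks the centromere, had nearly equal means, with a log2 fold change of -0.005 (95% interval -0.39 to 0.38), although its values differed 1.97-fold between CA 1 and CA 3. CENPQ, of the same constitutive network, spread furthest of the 43 genes, 3.11-fold from 5.82 in CA 4 to 7.46 in CA 2, and had a log2 fold change of -0.03 (SE 0.24). CENPC, CENPI, CENPK, CENPU and CENPW, also of that network, lay between -0.17 and -0.05. CENPT, another centromere scaffold of the NDC80 complex, was at 0.06 (SE 0.11). CENPJ was at 0.08 (SE 0.06), whereas a second and dimmer feature of CENPJ gave 0.18 (unadjusted limma p = 0.00923 in the fit over every feature), and the correlation of both features over the 12 piglets was 0.53.

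Condensin and chromosome structure genes had lower means in the CA piglets for 4 of 5, at a median log2 fold change of -0.17 (SE 0.12) and with 0 at an unadjusted p under 0.05 by limma and 0 by exact permutation. The shares of all genes at that p were 3.28% and 3.43% in either direction. NCAPG, a subunit of condensin I, lay between 6.75 and 7.81 in the CA piglets (median 7.44) and between 7.44 and 7.67 in the SA piglets (median 7.62). The SA values were tightly grouped (SD 0.09) and the CA values were not (SD 0.36), with CA 4 lowest and CA 3 highest of all. NCAPG had a log2 fold change of -0.20 (SE 0.14), and -0.07 without CA 4.

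TOP2A, the topoisomerase that untangles sister chromosomes and a common mark of proliferation, lay between 8.52 and 9.27 in the CA piglets (median 8.68) and between 8.59 and 9.19 in the SA piglets (median 9.05). CA 3 had the highest value, CA 5 lay among the SA piglets, and SA 9 lay below 5 of the 6 CA piglets. Its log2 fold change was -0.17 (95% interval -0.46 to 0.12). NCAPG2 and NCAPD2, further condensin subunits, were at -0.17 (SE 0.16) and -0.06 (SE 0.12), and NCAPH2, the kleisin of condensin II, was at 0.07 (SE 0.08).

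Spindle genes had lower means in the CA piglets for 6 of 6, with a median log2 fold change of -0.22 (SE 0.16). At an unadjusted p under 0.05, limma gave 1 of the 6 and exact permutation 0, beside 3.28% and 3.43% of all genes in either direction. CKAP2L, a protein of the spindle and its poles, lay between 7.16 and 7.95 in the CA piglets (median 7.36) and between 7.36 and 8.29 in the SA piglets (median 7.85). CA 1, CA 4 and CA 6 were below every SA piglet and SA 10, SA 11 and SA 12 above every CA piglet, with the remaining piglets mixed. It had the largest difference of the 43 genes, a log2 fold change of -0.40 (95% interval -0.77 to -0.02), or 0.760 of the SA level, with an unadjusted p of 0.0385 from limma and 0.0779 from the exact permutation test.

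TACC3, which stabilizes spindle fibres together with clathrin, lay between 5.34 and 6.09 in the CA piglets (median 5.70) and between 5.79 and 6.14 in the SA piglets (median 5.90). CA 1, CA 2 and CA 6 were below every SA piglet. The log2 fold change of TACC3 was -0.23 (SE 0.12, exact permutation p = 0.108), and SA 9 was not its lowest SA piglet. CKAP2, a microtubule-stabilizing relative of CKAP2L, lay between 8.14 and 9.06 in the CA piglets (median 8.58) and between 8.44 and 8.97 in the SA piglets (median 8.89), and its log2 fold change was -0.22 (SE 0.14). CA 4 was the lowest and CA 3 the highest for this gene. DLGAP5, which bundles spindle fibres near the chromosomes, was at -0.31 (SE 0.19), ASPM, of the spindle poles, at -0.17 (SE 0.13), and HMMR, also of the poles, at -0.11 (SE 0.17).

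Among the genes taken by the symbol rule, only ANLN, whose product anillin organises the contractile ring, was grouped under cytokinesis. It lay between 8.77 and 9.54 in the CA piglets (median 9.16) and between 8.79 and 9.99 in the SA piglets (median 9.47). CA 4 and SA 9 shared the lowest values, and SA 11 was the highest by a clear gap. ANLN had a log2 fold change of -0.28 (95% interval -0.66 to 0.10).

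Of the 3 genes kept in a list of their own, 1 had a lower mean in the CA piglets. PLK2, a stress-induced polo-like kinase that acts mainly outside mitosis, lay between 8.50 and 8.73 in the CA piglets (median 8.56) and between 8.25 and 8.70 in the SA piglets (median 8.46). SA 7, SA 10 and SA 11 were below every CA piglet and SA 8 stood with the highest CA piglets. Its log2 fold change was 0.15 (95% interval -0.03 to 0.32, exact permutation p = 0.0952). CENPV was at 0.04 (SE 0.12), and CKAP4, a membrane protein of the endoplasmic reticulum, was at -0.06 (SE 0.11). The signs of CENPV and CKAP4 turned without CA 4 and with array weights, and that of CENPV also without SA 10.

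Piglets of the same group differed more than the groups did. The within-group SD of the 43 genes had a median of 0.26 on the log2 scale, as compared to 0.16 for all genes, and 39 of the 43 genes were above the median gene in this respect. Averaged over the 40 mitotic genes, as a difference from each gene's mean over all piglets, the values of CA 1 to CA 6 were -0.20, -0.20, 0.29, -0.28, 0.06 and -0.12. SA 7 to SA 12 were at 0.04, 0.08, -0.33, 0.21, 0.22 and 0.24. The highest piglet was therefore a CA piglet and the lowest an SA piglet. The means were -0.08 ± 0.21 in the CA piglets and 0.08 ± 0.22 in the SA piglets (SD, n = 6 each), with 13.3% of the variance of this average lying between the groups.

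CA 3 and SA 9 ran against their groups in most of these genes. CA 3 was the highest CA piglet in 32 of the 40 mitotic genes, and the highest of all 12 in 15. SA 9 was the lowest SA piglet in 33 of 40, and exceeded the overall mean in only 3. CA 4 was the lowest of all piglets in 18 genes, among them CDK1, CCNA2, TTK and TOP2A, and SA 10 was above the mean in 40 of 40. The array weights of CA 3 and SA 9 were 0.787 and 0.693, the lowest after that of CA 4. The part of array quality in these positions was not tested.

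**Figure D3:**
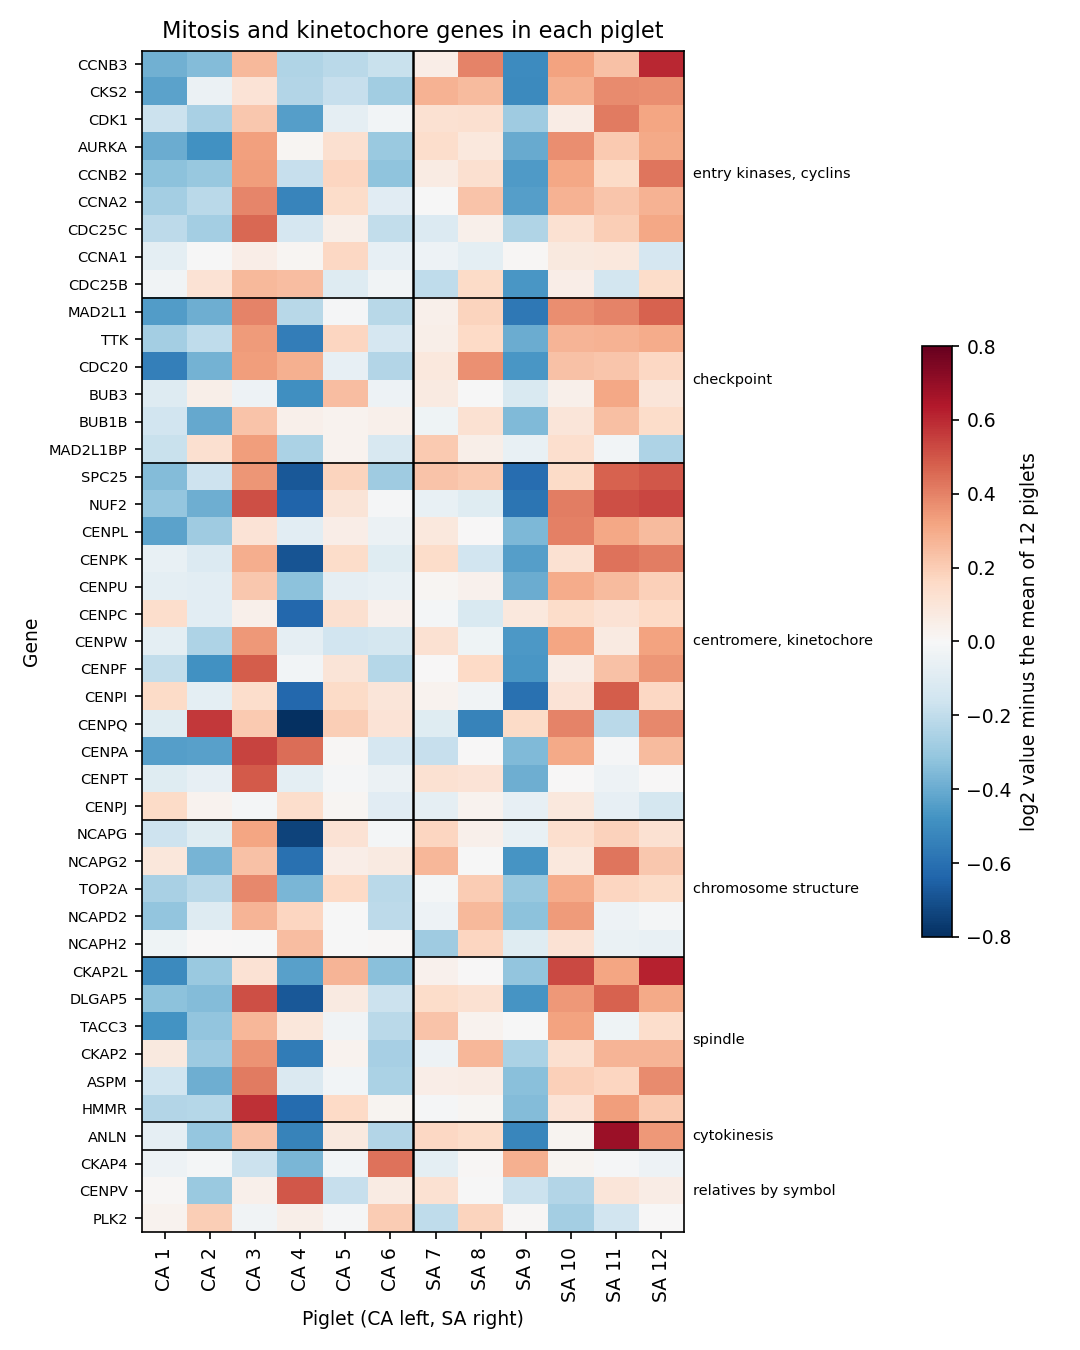
Log2 value of each of the 43 genes in each piglet, minus the gene's mean over the 12 piglets (red above, blue below; CA piglets left, SA piglets right, genes grouped by role). CA 3 is red in 37 of the 40 mitotic genes and SA 9 is above the mean in 3 of them, against the side of their groups.

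The mitotic genes moved together from piglet to piglet. Over the 12 piglets, the median Pearson correlation between their 780 pairs was 0.63, and it was 0.64 with group means removed. Pairs over 0.5 made up 62.4% for the mitotic genes and 9.00% for all genes, whose median was 0.01. These correlations are descriptions over piglets that share array normalization, group and any difference in cell make-up. Correlated with the average of the other mitotic genes, 33 of 40 were over 0.5 and 23 were over 0.8, with DLGAP5 (0.97), TTK (0.97), CCNA2 (0.97), MAD2L1 (0.96), NUF2 (0.95) and TOP2A (0.95) at the top. CENPJ (-0.37) and NCAPH2 (-0.12) were under 0, and CCNA1 (0.16), CENPQ (0.23), CDC25B (0.30), MAD2L1BP (0.41) and CENPC (0.43) stayed under 0.5. PLK2 (-0.49), CKAP4 (-0.20) and CENPV (-0.08) were under 0 as well. The measure differed by more than 0.5 between the groups for 5 mitotic genes, namely MAD2L1BP, NCAPH2, CDC25B, CENPJ and CCNA1, at 0.81, -0.45, 0.12, -0.53 and 0.54 within the CA piglets and -0.07, 0.25, 0.79, 0.08 and -0.04 within the SA piglets, which was not tested.

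**Figure D4:**
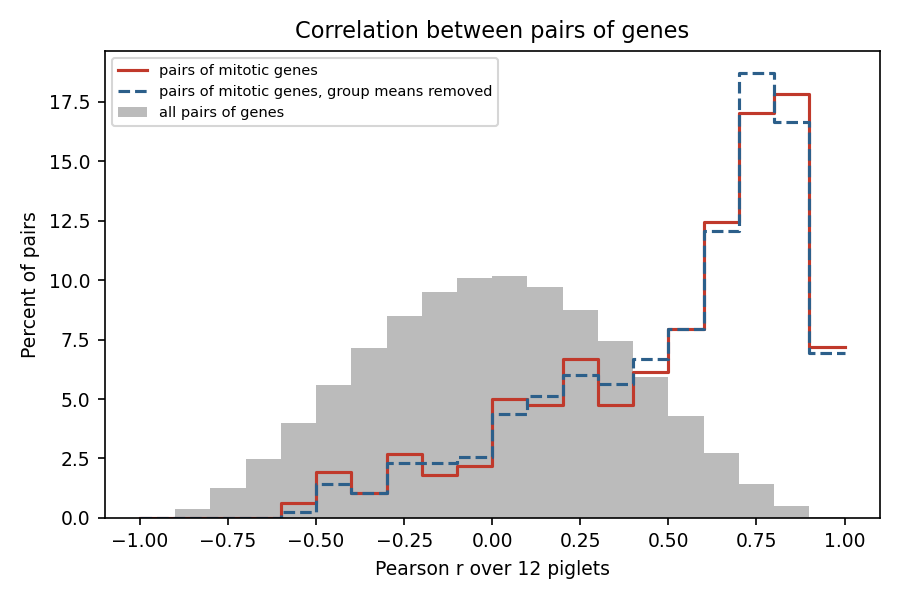
Percent of gene pairs by their Pearson correlation over the 12 piglets: pairs of the 40 mitotic genes (line), the same with group means removed (dashed line) and pairs of all 10912 genes (grey bars). The mitotic pairs peak between 0.7 and 0.9 with a median of 0.63, whereas all pairs centre on 0.01.

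Genes outside the symbol rule that were most like the mitotic average over the 12 piglets were KIF23 (0.98), MTFR2 (0.98), MELK (0.97), ANP32E (0.97), CEP55 (0.94), KIF15 (0.94), DNA2 (0.94), KIF24 (0.93), CCNE2 (0.93) and GEN1 (0.93). KIF23 and CEP55 act in the last steps of cytokinesis, KIF15 is a spindle motor, MELK is a kinase of dividing cells, and DNA2 and GEN1 are nucleases of DNA replication and recombination. The log2 fold changes of these 10 genes lay between -0.27 and -0.10. They were picked by correlation with an average that was itself lower in the CA piglets, so this direction was favoured by the choice. The 10 genes had unadjusted limma p values from 0.118 for KIF24 to 0.454 for MELK.

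Other genes of the division machinery were compared from lists. Of 40 measured mitosis genes outside the symbol rule, 35 had lower means in the CA piglets, at a median log2 fold change of -0.15 (SE 0.13), and 0 had an unadjusted p under 0.05 by limma or by exact permutation. Among all genes this p was reached by 3.28% and 3.43% in either direction. PBK, a mitotic kinase, was at -0.35 (SE 0.20), PTTG1, the securin that restrains separase, at -0.31 (SE 0.19), FAM83D, a spindle protein, at -0.27 (SE 0.14), and FBXO5, an inhibitor of the anaphase promoting complex, at -0.24 (SE 0.15). The average of this list correlated with the mitotic average at 0.98 over the 12 piglets.

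For the control of G1 and S phase, 15 of 22 genes had lower means in the CA piglets, but the median log2 fold change was -0.04 (SE 0.03). CDKN1A, the p21 inhibitor of cyclin-dependent kinases, was the only 1 of the 22 at an unadjusted p under 0.05 by limma or by exact permutation. Over all genes, these tests gave 3.28% and 3.43% at that p in either direction. CDKN1A was at 0.40 (SE 0.14, exact permutation p = 0.0368, limma adjusted p = 0.999). CDKN2B, an inhibitor of CDK4 and CDK6, was at 0.34 (SE 0.21, exact permutation p = 0.184). The other CDKN genes measured from that list went the other way, with CDKN2C at -0.17 (SE 0.16), CDKN3 at -0.17 (SE 0.14) and CDKN2D at -0.04 (SE 0.08). SKP2, which marks cell cycle inhibitors for breakdown, was at -0.14 and CDK2 at -0.11. In the anaphase promoting complex and its partners, 5 of 7 genes had lower means, with a median log2 fold change of -0.07 (SE 0.06) and 0 genes at an unadjusted p under 0.05 by limma or by exact permutation. Its core subunits CDC23 and ANAPC5 were at -0.15 and -0.10, UBE2C, the ubiquitin-conjugating enzyme that serves the complex and is also counted among the 40 mitosis genes above, at -0.18, and FZR1, its late activator, at 0.11.

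Markers of acid-secreting parietal cells ran opposite to the mitotic genes. Of 15 markers listed, 9 were measured and 9 had higher means in the CA piglets, with a median log2 fold change of 0.36. By limma, 6 of them had an unadjusted p under 0.05 (beside 2.06% of all genes in that direction) and 0 had an adjusted p under 0.05. By exact permutation, only KCNE2 (p = 0.0325) and CKMT2 (p = 0.0281) had an unadjusted p under 0.05, beside 3.43% of all genes in either direction. The summed level of the 9 markers was 13.3 to 13.8 in the CA piglets and 13.0 to 13.8 in the SA piglets on the log2 scale. Of the 9, 1 was dimmer than the median feature, and none was at 0. Averaged as above, they lay at -0.27 in CA 3 and at 0.45 in SA 9, also against the side of their groups. Their correlation with the mitotic average was -0.86 over the 12 piglets (Spearman -0.75), -0.83 within the CA and -0.90 within the SA piglets, and -0.82 without SA 9 and CA 4. The piglets lay mostly in 2 clusters, which the pooled value spans. The part of parietal cell share in the mitotic values was not tested.

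**Figure D5:**
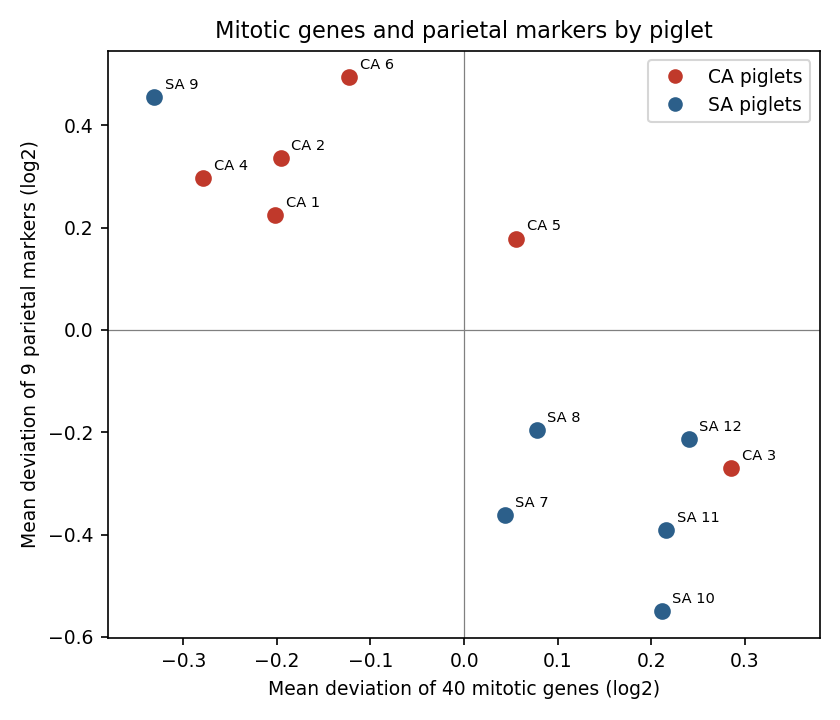
Average of 9 parietal cell markers (vertical) against the average of the 40 mitotic genes (horizontal), each as log2 difference from the mean of all piglets; each point is 1 piglet. CA 3 lies at 0.29 and -0.27 among the SA piglets, and SA 9 lies at -0.33 and 0.45 among the CA piglets.

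Other cell type markers had correlations with the mitotic average of smaller size over the 12 piglets. The 6 measured stem and progenitor markers correlated with it at -0.79, the 6 endothelial markers at -0.68, the 3 chief cell markers at -0.56 and the 10 macrophage and dendritic cell markers at 0.58, with medians of 0.06, 0.12, 0.05 and -0.15 in log2 fold change. For the 11 T and NK cell markers, 7 of which were dimmer than the median feature, this correlation was 0.26, and for the 4 B and plasma cell markers it was -0.02. Erythroid, mucous, endocrine and fibroblast markers lay between -0.54 and -0.05. Smooth muscle markers, 3 in number, were at 0.38. Within single groups some were as large as those of the parietal markers. Chief cell markers were at -0.88 within the CA and -0.36 within the SA piglets, and smooth muscle markers at -0.50 and 0.87. Stem and progenitor markers were at -0.80 and -0.75. Several of the values over the 12 piglets rested on SA 9 and CA 4: without both piglets the correlation was -0.04 for smooth muscle, 0.46 for B and plasma cell, -0.52 for fibroblast, -0.33 for chief cell and -0.16 for endocrine markers. For stem and progenitor markers it was -0.60. Summed levels overlapped between the groups for each of these lists, for example 10.8 to 11.1 in the CA piglets and 10.6 to 11.1 in the SA piglets for stem and progenitor markers.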

How the data were processed

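Total RNA of the oxyntic mucosa of 12 piglets, 6 CA and 6 SA, was measured with 1 Affymetrix porcine gene array per piglet. The authors deposited linear intensities, background-corrected, normalized and summarized by Robust Multichip Analysis with the Expression Console of Affymetrix (version not given in the sources used here). Columns of sample values not used numbered 0. No read depth exists for arrays, whose number sets the precision.

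Intensities were converted to log2. Of 27558 features, 11982 had 1 gene symbol in the platform annotation, 373 had several and 15203 are unnamed here. Of the 10912 genes, 969 had more than 1 feature, of which the brightest was kept. Groups came from the labels, and pig numbers are not shared between groups. Each gene was fitted with lmFit and eBayes of limma 3.58.1 in R 4.3.3, with Benjamini-Hochberg adjustment over all genes and no covariate. Exact permutation tests over all splits of the piglets into 6 and 6 were two-sided, with a smallest possible p of 0.00217. Simulated data with known changes were used to test the fit. Python 3.11.15, numpy 2.4.6, pandas 2.3.3, scipy 1.17.1 and matplotlib 3.10.9 served for the rest.

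Values by piglet are given for the 8 genes with the smallest p, the brightest and the smallest-p gene of each role, and CDK1, TOP2A, CCNA2, AURKA, BUB1B and CENPF. Genes above 0, the 10 most like the mitotic average and up to 4 of each pathway list are named as well. The genes and lists were chosen with earlier results of these data known. Alternatives were other normalizations, the mean over a gene's features, leaving out dim features, other moderation, array weights, exact permutation and leaving out each piglet. Gene sequences and promoter motifs were not used here.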

Additional observations from a re-analysis of the deposited data

Results flagged for a closer look

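A single piglet stood apart from the rest of its group in 3 of 36 checked groups of 6 values, by a gap to its nearest neighbour of more than 0.625 of the group's range, a limit that chance passes in about 1 in 20 groups. CKS2 was at 7.329 in SA 9, whereas the next SA piglet was at 8.089 (gap of 0.856 of the range). The average of the 40 mitotic genes was at -0.331 in SA 9, whereas the next SA piglet was at 0.043 (0.656 of the range). CCNB3 was at 6.01 in CA 3, whereas the next CA piglet was at 5.573 (0.676 of the range). The array weights of SA 9 and CA 3 were 0.693 and 0.787, and why these piglets stood apart was not tested.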

How the results depend on the processing

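No paired analysis was possible because no label gives a piglet's litter and the piglet numbers differ between the groups. By the methods, litter was balanced over the groups. Without such labels, littermates were treated as unrelated in every test here. Counts of genes at an adjusted p under 0.05 stayed at 0 under every alternative run. The 3 genes at an unadjusted p under 0.05 became 9 with array weights (beside 6.41% of all genes), 0 by exact permutation, and 0 to 13 when each piglet was left out in turn. Genes with lower CA means numbered 32 to 37 and their median log2 fold change was -0.24 to -0.10 over the same omissions. The log2 fold change of BUB1B ranged from -0.15 without SA 9 to 0.000274 without CA 2, where its sign turned, and the other 319 values of named genes under the alternatives kept their direction, with no adjusted p under 0.05. No gene of the 43 changed sign with quantile normalization, with median centring or with the mean of all features. The last of these could act only on CDK1, CENPJ and MAD2L1BP, the genes with more than 1 feature. Exact permutation, other moderation and the filter on dim features do not alter a log2 fold change, so no direction could turn under them. Over all alternatives 11 of the 43 changed sign at least once: CENPQ, CENPV and CKAP4 with array weights, and, with some piglet left out, these 3 and CENPA, MAD2L1BP, CENPI, CENPT, BUB1B, CCNA1, HMMR and NCAPD2. At most 6 did so at a time (without CA 4). Genes lower in the CA piglets made up 47.3% of all genes, 51.5% after quantile normalization and 55.7% after median centring. The filter on dim features kept 38 of the 43 genes, 32 of them lower. Causes were not tested. Promoter motifs were planned and not run.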

Other observations

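Genes that ran most opposite to the average of the 40 mitotic genes over the 12 piglets, picked after their values were seen, were CRY2 (Pearson correlation -0.95), a repressor of the circadian clock, ANK3 (-0.95), an adaptor between membrane and cytoskeleton, KCNJ15 (-0.94), a potassium channel of parietal cells, IL11RA (-0.92), the receptor of interleukin 11, and PSD (-0.92). Their log2 fold changes (CA minus SA) were 0.11, 0.28, 0.62, 0.28 and 0.01. The mitotic average was lower in the CA piglets, so picking genes opposite to it favoured this direction. PPARA, a nuclear receptor of fatty acid oxidation, was at a correlation of -0.91 and a log2 fold change of 0.26. With group means removed, the correlations of CRY2, ANK3, KCNJ15 and PPARA were -0.94, -0.94, -0.94 and -0.89. They are descriptions of 12 piglets among 10912 genes and were not tested.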
